A study of Mus musculus with 5 samples.

Results

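The genes described here encode the protein subunits of the mitochondrial ribosome. They are the 77 features, of 34240 in a table of RNA sequencing values from mouse myeloid cells, whose symbol is Mrpl or Mrps followed by a number and at most 1 letter. Symbols beginning with Mrpl name 48 large subunit genes and those beginning with Mrps 29 small subunit genes. One of the 48, Mrpl51p, is a pseudogene symbol listed at 0 in every library, which leaves 76 genes with a measured level. The study set leukaemia cells of mice against normal myeloid cells, all from BALB/c animals of 10 to 12 months as labelled. The normal group holds 3 libraries of bone marrow cells sorted for the surface antigens Gr1 and Mac1. The AML group, for acute myeloid leukaemia, holds 2 libraries of bone marrow and spleen cells sorted for Mac, Gr1 and B220. This leukaemia was induced by CNTRL-FGFR1, in which centriolin, a protein of the centrosome, is fused to the tyrosine kinase FGFR1. Spleen and the B220 gate belonged to the AML group alone, so tissue, gate and leukaemia cannot be told apart. The labels do not tell whether each library had its own animal. The p-values therefore reflect the spread among these libraries alone, and part of that spread may be technical.

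Mitochondria keep a ribosome of their own, which makes the few proteins encoded in mitochondrial DNA, all of them core subunits of the respiratory chain and ATP synthase. Its RNA parts come from mitochondrial DNA, while every protein subunit is encoded in the nucleus, made in the cytosol and imported. The small subunit binds the mRNA and reads it, and the large subunit joins amino acids and releases the new chain towards the inner membrane. Some proteins descend from bacterial ribosomal proteins and others exist only in mitochondrial ribosomes. AML cells are known for reliance on mitochondrial translation and respiration, and mature neutrophils for few mitochondria.

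The values are read here as RPKM, read counts scaled by exon length and by the mapped reads of the library, so that levels of different genes can be set side by side. Genes that define the sort were present in all libraries and were called lower in AML cells. Itgam, the Mac1 alpha chain, lay between 428.8 and 580.4 RPKM in normal and at 250.9 and 169 RPKM in AML libraries, and Ly6g, part of the Gr1 epitope, lay between 1126 and 1464.3 RPKM in normal and at 650.4 and 481.7 RPKM in AML libraries. Ptprc, the gene of B220, lay between 163.6 and 262.5 RPKM in normal and at 71.7 and 77.7 RPKM in AML libraries. These values are for the whole gene and do not give the level of the B220 form. Markers of neutrophil stages differed too. Mpo and Elane, granule genes of early stages, were 17.8-fold and 62.2-fold higher in AML cells. Ltf, Mmp8 and Mmp9, granule genes of later stages, fell, with log2 fold changes of -1.44, -2.79 and -3.18 (limma). Camp, S100a8 and S100a9, listed with them as neutrophil markers, missed the threshold, with log2 fold changes of 0.55, -0.33 and -0.19. Normal library 3 stood apart in markers of other cells. The summed level of 7 erythroid markers was 2244 and 1460.2 RPKM in normal libraries 1 and 2, 167.7 RPKM in normal library 3, and 150.2 and 172 RPKM in the AML libraries. For 8 eosinophil and basophil markers the sums were 1042.91, 1108.11 and 68.41 RPKM in normal libraries and 114.61 and 240.46 RPKM in AML libraries. The eosinophil receptor Il5ra was at 0 in normal library 3 and AML library 1. Of the same list, Prss34 stood at 11.8, 15 and 11.4 RPKM in normal and at 0.7 and 0.8 RPKM in AML libraries. Mcpt8 stood at 9.41, 13.21 and 6.01 RPKM and at 12.11 and 30.36 RPKM, so neither gene followed the sum across the libraries. Monocyte and macrophage markers, 8 in all, summed to between 796.8 and 1149.8 RPKM in normal and to 70 and 84 RPKM in AML libraries. For 8 T and NK cell markers, sums lay between 57.1 and 64.5 RPKM in normal libraries and at 621.88 and 577.82 RPKM in AML libraries, with Cd2 and Lck under 1 RPKM in every library. Cd3e, Cd3g and Nkg7 made up most of the AML sums, while Cd3d was lower in AML, at 16.5 and 17.2 RPKM against 38.4 to 45.5 RPKM. Sums of 8 B lineage markers lay between 10.5 and 18.2 RPKM in all libraries. The part of these cells and stages in the differences below was not tested.

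Genes of the mitochondrial ribosome were called higher in AML cells or missed the threshold, none was called lower, and the shares were alike in both subunits. Of 47 large subunit genes tested, 13 rose and 34 missed the threshold, and of 29 small subunit genes 8 rose and 21 missed it (limma, Benjamini-Hochberg adjusted p under 0.05). These are shares of 27.7% and 27.6%, beside a background of 19.3% of all 10166 tested genes called higher and 11.8% called lower. No member was called lower by limma, and none was lower at an unadjusted p under 0.05, where 35 were higher. At that unadjusted threshold 2698 of all 10166 tested genes were higher and 1765 lower. The median log2 fold change on the log2(RPKM + 1) scale was 0.63 for large and 0.60 for small subunit genes, against 0.12 for all tested genes. Estimates were above 0 for 46 of 47 large and 27 of 29 small subunit genes, or 96.1% of members, and for 55.9% of all tested genes. Both AML libraries exceeded all 3 normal libraries for 30 large and 21 small subunit genes, 67.1% of members, and the background of this order is 34.8%. None had both AML libraries below every normal one, an order that 22.1% of tested genes showed. In bulk samples such as these, fewer cells of a type and less RNA per cell cannot be told apart.

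**Figure D1:**
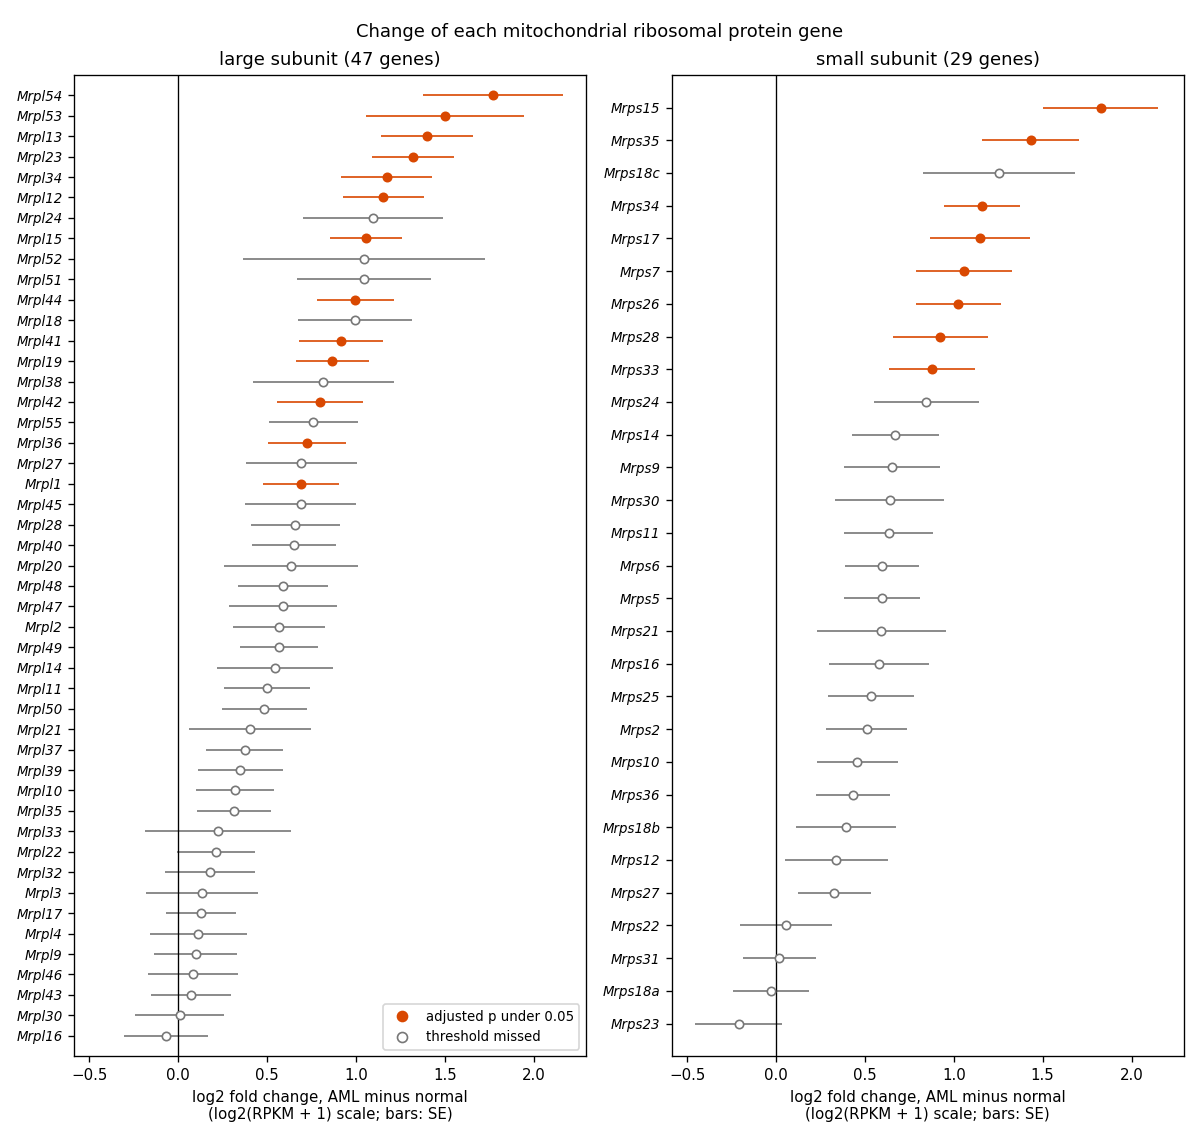
Log2 fold change of AML against normal for each of the 76 measured genes, large subunit on the left and small on the right, with bars for the standard error of the limma fit. Filled orange points are the 21 genes past an adjusted p of 0.05, and all of them lie to the right of 0, as do all but 3 of the genes.

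These counts depended on single libraries. Without normal library 1, 2 or 3, the number of large subunit genes called higher was 5, 2 and 27, and of small subunit genes 3, 3 and 17. Without AML library 1 it was 3 and 3, and without AML library 2 it was 0 and 0, with 12 large and 10 small subunit genes at an unadjusted p under 0.05. In those fits the lone AML library was assumed to vary like the normal group. The share of all tested genes called higher moved with them, to 11.4%, 9.61% and 27.3% without normal library 1, 2 and 3, and to 7.08% and 3.33% without AML library 1 and 2. With 1 library left out, both subunits had shares called higher above that of all tested genes only without normal library 3. In each other such fit the large subunit share was below it. All 21 called genes remained called without normal library 3. With normal library 3 as the only normal library 2 of the 21 remained called, Mrps15 and Mrps35, beside 9.15% of all tested genes called higher. The median log2 fold change was then 0.34 for large and 0.42 for small subunit genes, and 0.20 for all tested genes.

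Summed over its genes, each subunit was higher in every AML library than in any normal one. The 47 large subunit genes together stood at 536.14, 656.22 and 896.19 RPKM in normal libraries 1 to 3 and at 989.45 and 1270.21 RPKM in AML libraries 1 and 2. Normal library 3 lay closer to AML library 1 than to normal library 1. The means were 696 ± 183 RPKM (SD, n = 3) and 1130 ± 199 RPKM (SD, n = 2), a ratio of 1.62. The 29 small subunit genes stood at 281.66, 334.86 and 443.07 RPKM in normal and at 594.27 and 799.89 RPKM in AML libraries, with means of 353 ± 82.3 RPKM (SD, n = 3) and 697 ± 145 RPKM (SD, n = 2) and a ratio of 1.97. As a share of each library's summed RPKM, the 76 genes took 0.173%, 0.187% and 0.217% in the normal group and 0.302% and 0.324% in the AML group. Proteins of one particle did not share one mRNA level, and in AML library 2 the highest member stood 90.0-fold above the lowest in RPKM.

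The large subunit took a smaller part of the summed level in AML libraries, and 1 gene made up much of that difference. The summed level of large over small subunit genes was 1.90, 1.96 and 2.02 in normal libraries and 1.66 and 1.59 in AML libraries, so the groups did not overlap. Without Mrps15, the small subunit gene that rose most, the same ratio was 2.14, 2.22 and 2.31 in normal and 2.09 and 2.05 in AML libraries. The groups then lay closer but still apart. Leaving out a gene picked for its rise had to bring the groups closer, and no large subunit gene was left out in the same way. Taken over medians in place of sums, the ratio was 1.34, 1.36 and 1.34 in normal and 1.28 and 1.26 in AML libraries. Without Mrps15 it was 1.37, 1.37 and 1.37 against 1.30 and 1.37, and the groups were no longer apart. Mrps18a and Mrps30 carry small subunit symbols but are proteins of the large subunit in the known structures, and Mrps36 is now assigned to the 2-oxoglutarate dehydrogenase complex. Counted by structure, 13 of 49 large and 8 of 26 small subunit genes rose, with medians of 0.63 and 0.62.

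**Figure D2:**
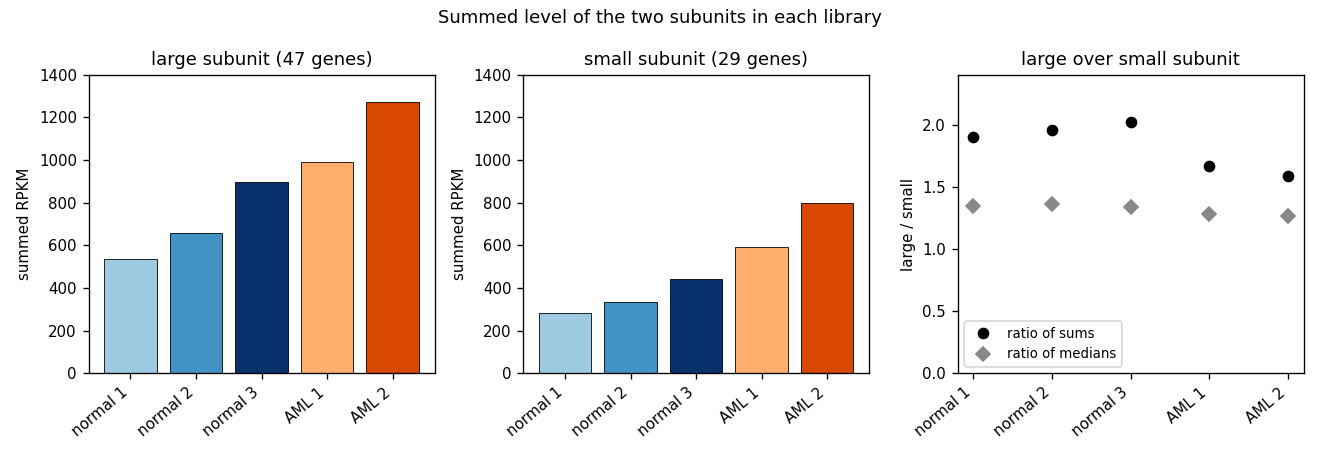
Bars give the summed RPKM of large subunit genes (left) and small subunit genes (middle) in each of the 5 libraries, and the right panel gives the large over small ratio of sums (circles) and of medians (diamonds). Sums run from 536.14 to 896.19 RPKM in normal and reach 989.45 and 1270.21 RPKM in AML libraries for the large subunit, and the ratio of sums is lower in both AML libraries (1.66 and 1.59) than in the normal ones.

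The 5 large subunit genes that rose most were Mrpl54, Mrpl53, Mrpl13, Mrpl23 and Mrpl34. Mrpl54, a protein with no bacterial counterpart (chromosome 10, 80727458 to 80729679, mm9, ENSMUSG00000034932), stood at 10.08, 11.23 and 19.95 RPKM in normal and 33.67 and 66.2 RPKM in AML libraries. The AML libraries were the highest, and they differed from each other by more than the normal libraries did. Its log2 fold change was 1.77 (SE 0.39, limma, Benjamini-Hochberg adjusted p = 0.016). Mrpl53, also found only in mitochondria (chromosome 6, 83059089 to 83059933), stood at 9.01, 9.08 and 20.37 RPKM in normal and 24.76 and 50.81 RPKM in AML libraries. Normal library 3 was nearer to AML library 1 than to the other normal libraries. The log2 fold change of Mrpl53 was 1.50 (SE 0.44, limma adjusted p = 0.042). With Ccdc142 it shares 87.1% of its annotated exon bases, on the same strand, where the reads of the pair cannot be told apart.

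The other 3 of these genes, all with bacterial counterparts, had AML libraries that lay closer together. Mrpl13 (chromosome 15, 55365649 to 55389303) stood at 16.96, 23.48 and 25.7 RPKM in normal and 54.69 and 63.46 RPKM in AML libraries, 2.68-fold higher. Mrpl23, the counterpart of a bacterial protein beside the exit of the peptide tunnel (chromosome 7, 149718704 to 149726652), stood at 2.58, 3.39 and 3.19 RPKM in normal and 7.91 and 10.42 RPKM in AML libraries, 3.00-fold higher. For both genes the lowest AML library was more than 2 times the highest normal one. Mrpl34 (chromosome 8, 73988825 to 73989651) stood at 6.97, 8.19 and 11.38 RPKM and at 20.44 and 21.22 RPKM. Log2 fold changes were 1.40 (SE 0.26) for Mrpl13, 1.32 (SE 0.23) for Mrpl23 and 1.17 (SE 0.26) for Mrpl34, with limma adjusted p-values of 0.0087, 0.0071 and 0.015.

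Mrpl12 rose as well, and its AML libraries lay close together. The protein forms the flexible stalk that recruits translation factors, and it is also known to bind the mitochondrial RNA polymerase. Mrpl12 (chromosome 11, 120345927 to 120350379) stood at 9.17, 11.04 and 12.75 RPKM in normal and 24.56 and 26.4 RPKM in AML libraries, a log2 fold change of 1.15 (SE 0.23, limma adjusted p = 0.011). The gene of the polymerase, Polrmt, stood at 1.88, 1.38 and 2.31 RPKM in normal and 4.8 and 5.95 RPKM in AML libraries, and rose by 1.17 (SE 0.23, adjusted p = 0.011). Named after their values were seen, the other 7 large subunit genes that rose were Mrpl15, Mrpl44, Mrpl41, Mrpl19, Mrpl42, Mrpl36 and Mrpl1, from 1.06 for Mrpl15 down to 0.69 for Mrpl1. Mrpl44, a relative of ribonuclease III, averaged 7.50 ± 0.836 RPKM in normal (SD, n = 3) and 15.9 ± 0.651 RPKM in AML libraries (SD, n = 2).

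Among small subunit genes Mrps15 and Mrps35 rose most. Mrps15, whose bacterial counterpart binds ribosomal RNA early in assembly (chromosome 4, 125724169 to 125732776, mm9, ENSMUSG00000028861), stood at 31.49, 38.85 and 55.49 RPKM in normal and 119.87 and 180.96 RPKM in AML libraries. In both AML libraries it was the most abundant mitoribosome mRNA per length. Its log2 fold change of 1.83 (SE 0.33, limma, Benjamini-Hochberg adjusted p = 0.0076) was the largest of all 76 genes. Mrps35, which has no bacterial counterpart (chromosome 6, 146991286 to 147019425), stood at 16.68, 19.63 and 20.05 RPKM in normal and 41.07 and 66.35 RPKM in AML libraries. The normal libraries lay close together and the AML libraries apart from them and from each other. Its log2 fold change was 1.43 (SE 0.27, adjusted p = 0.0095).

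Mrps34, Mrps17 and Mrps7 followed. Mrps34, a mitochondrial protein mutated in a form of Leigh syndrome (chromosome 17, 25032061 to 25034447), stood at 8.32, 7.86 and 9 RPKM in normal and 18.32 and 21.76 RPKM in AML libraries, a change of 1.16 (SE 0.21, adjusted p = 0.0085). It shares 63.4% of its annotated exon bases with Mapk8ip3 on the other strand, and the sources used here do not say that strand was kept. Nme3, which shares part of its exons on the same strand, could not be told apart by strand. Mrps17 stood at 13.4, 16.05 and 23.13 RPKM in normal and 35.94 and 42.39 RPKM in AML libraries, a change of 1.15 (SE 0.28, adjusted p = 0.023). Mrps7, whose bacterial counterpart organises the head of the small subunit, stood at 6.62, 7.51 and 11.27 RPKM and at 17.41 and 19.15 RPKM, a change of 1.06 (SE 0.27, adjusted p = 0.026). For all 3 genes both AML libraries lay above the normal ones. Mrps26, Mrps28 and Mrps33, named after their values were seen, completed the 8 with changes of 1.03, 0.92 and 0.88 (limma).

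Calls of single genes changed as libraries were left out. All 21 calls were lost without AML library 2, at adjusted p-values from 0.069 for Mrpl23 to 0.28 for Mrpl53, with log2 fold changes from 0.55 to 1.53. Without AML library 1 the calls of Mrpl13, Mrpl23, Mrpl54, Mrps15, Mrps34 and Mrps35 remained, and 15 were lost at adjusted p-values up to 0.18. Without normal library 2 the calls of Mrpl13, Mrpl23, Mrps15, Mrps34 and Mrps35 remained, and without normal library 1 those of the same 5 with Mrpl12, Mrpl15 and Mrpl54 (highest adjusted p 0.18 and 0.16). The estimate of every called gene stayed at 0.546 or more in each of these fits (limma). Both AML libraries lay above every normal one for each called gene, so its estimate had to stay above 0.

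**Figure D3:**
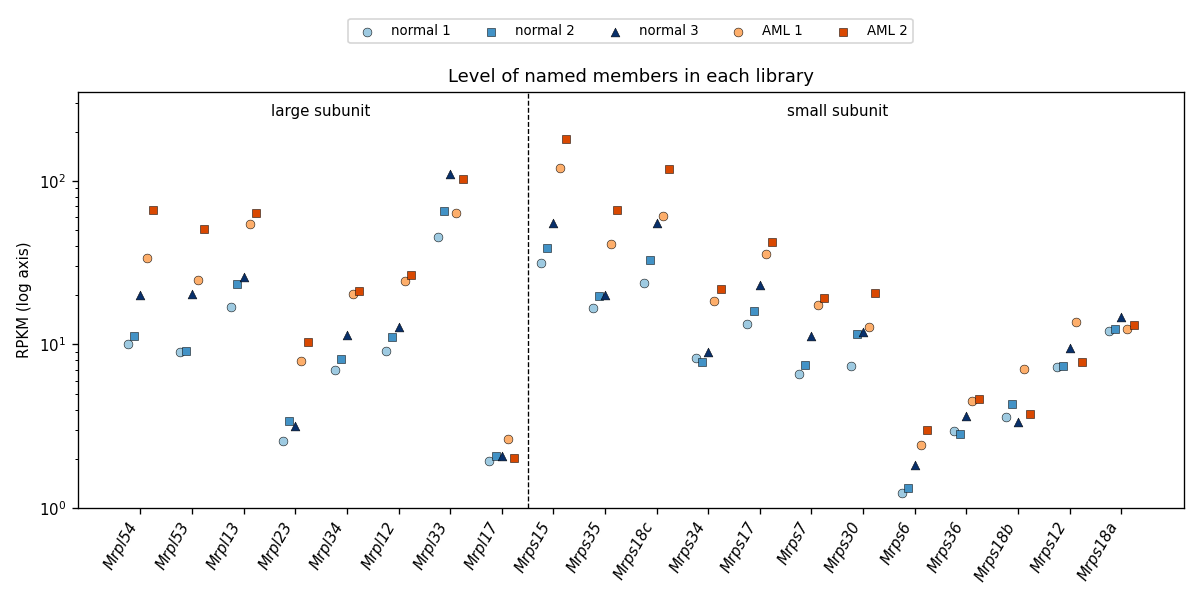
RPKM on a log axis for the 20 genes named by rule, in order of change within each subunit, with blue symbols for the 3 normal and orange symbols for the 2 AML libraries. The groups are apart for 15 of the 20 genes, of which 10 were named for their large rise (34.8% of all tested genes have AML above), and overlap for Mrpl33, Mrpl17, Mrps18b, Mrps12 and Mrps18a.

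The 3 Mrps18 paralogs, related proteins descended from one bacterial ancestor, differed from each other in level and in change. Mrps18c, the form closest in place to the bacterial protein, stood at 23.74, 32.9 and 55 RPKM in normal and 61 and 118.2 RPKM in AML libraries. Its estimate of 1.25 (SE 0.43) missed the threshold (limma adjusted p = 0.065) and passed without normal library 3 (1.57, adjusted p = 0.0068). Without normal library 1 or 2 the estimate was 0.98 and 1.21 and missed the threshold (limma adjusted p = 0.15 and 0.16). Without AML library 1 or 2 the estimate was 1.72 and 0.78. Mrps18b stood at 3.59, 4.3 and 3.34 RPKM in normal and 7.08 and 3.78 RPKM in AML libraries, and its AML library 2 lay inside the normal range. Mrps18a, the large subunit form, stood at 12.1, 12.5 and 14.8 RPKM in normal and 12.5 and 13.1 RPKM in AML libraries. Its estimate was -0.03 (SE 0.21, adjusted p = 0.93). The difference between the paralogs was not tested.

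Other members with particular roles missed the threshold. Mrps12, the protein of the decoding centre, stood at 7.29, 7.43 and 9.46 RPKM in normal and 13.75 and 7.81 RPKM in AML libraries, and only AML library 1 was above the normal range (0.34, SE 0.29, limma adjusted p = 0.39). Its estimate turned to -0.03 without AML library 1. Mrps30 stood at 7.4, 11.57 and 11.93 RPKM in normal and 12.85 and 20.6 RPKM in AML libraries (0.64, SE 0.31, adjusted p = 0.15). Mrps36 stood at 2.94, 2.83 and 3.63 RPKM and at 4.52 and 4.61 RPKM (0.43, SE 0.21, adjusted p = 0.15). For Mrps30 and Mrps36 the groups did not overlap. Mrps6 had the lowest mean level of the small subunit, at 1.23, 1.33 and 1.83 RPKM in normal and 2.43 and 3.01 RPKM in AML libraries (0.60, SE 0.21, limma adjusted p = 0.068). With Slc5a3 it shares 43.8% of its annotated exon bases, on the same strand, where the reads of the pair cannot be told apart.

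At the ends of the range of levels in the large subunit, no difference passed the test. Mrpl33, the highest on average, stood at 45.55, 65.07 and 110.6 RPKM in normal and 63.79 and 102.13 RPKM in AML libraries, and normal library 3 held its highest value (0.22, SE 0.41, limma adjusted p = 0.70). Its estimate was -0.07 without normal library 1 and -0.11 without AML library 2. Mrpl17, the lowest on average, stood at 1.95, 2.07 and 2.09 RPKM in normal and 2.66 and 2.01 RPKM in AML libraries (0.13, SE 0.20, adjusted p = 0.64; -0.01 without AML library 1). The 3 genes with estimates below 0 were Mrps23 (-0.21), Mrpl16 (-0.07) and Mrps18a, named after their values were seen. Mrps23 stood at 18.8, 24 and 16 RPKM in normal and 17.1 and 16.1 RPKM in AML libraries.

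Values were written with 1 decimal for 11 members and with 2 decimals for 65. None of the 11 was called, with log2 fold changes between -0.21 and 0.21, and all 21 called genes were among the 65. Over all tested genes 11.9% of those with 1 decimal and 94.5% of those with 2 had estimates above 0, so the number of decimals moved with the direction in the deposited table. None of the 4749 tested genes with 1 decimal was called higher, also at an unadjusted p under 0.05. Of the 5417 with 2 decimals 36.2% were called higher, with a median log2 fold change of 0.63, and of the 65 members 32.3%, with a median of 0.66. With every value rounded to 1 decimal the counts were again 13 and 8.

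Differences within the groups were large for some of these genes. Normal library 3 was above normal libraries 1 and 2 for 58 of 76 members (76.3%, against 38.2% of all tested genes), by a median of 0.29 on the log2(RPKM + 1) scale. AML library 2 was above AML library 1 for 46 of 76 (60.5%, against 38.7%), by a median of 0.16. Mrpl52, named after its values were seen, was the extreme case, at 7.65, 9.72 and 40.05 RPKM in normal and 21.61 and 44.94 RPKM in AML libraries. Across the 76 genes the 2 within-group differences had a Spearman correlation of 0.63, and across all tested genes 0.59. Genes share libraries and are not independent, so this is a description. Both AML libraries were above normal library 3 for 54 members (71.1%, against 46.9% of tested genes) and above normal libraries 1 and 2 for 61 (80.3%, against 42.9%).

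Mitoribosome mRNAs are short, and the libraries differed by length. The median transcript length of the members was 1065 bases, against 2210 bases for all tested genes. The difference of normal library 3 from normal libraries 1 and 2 had a Spearman correlation with transcript length of -0.37 across members and -0.39 across 9807 tested genes, and that of AML library 2 from AML library 1 of -0.21 and -0.31. For the difference between AML and normal the correlations were -0.19 and -0.25, and they were -0.31 across the large and 0.04 across the small subunit genes. With the trend on transcript length removed from each library, 11 large and 7 small subunit genes were called higher, or 23.4% and 24.1%, beside 20.2% of all genes in that fit, and 17 of the 21 calls remained. The medians were then 0.38 for the large and 0.49 for the small subunit, against 0.11 for all genes, so the order of the 2 subunits turned. RNA integrity was not measured in the files, and its part was not tested.

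**Figure D4:**
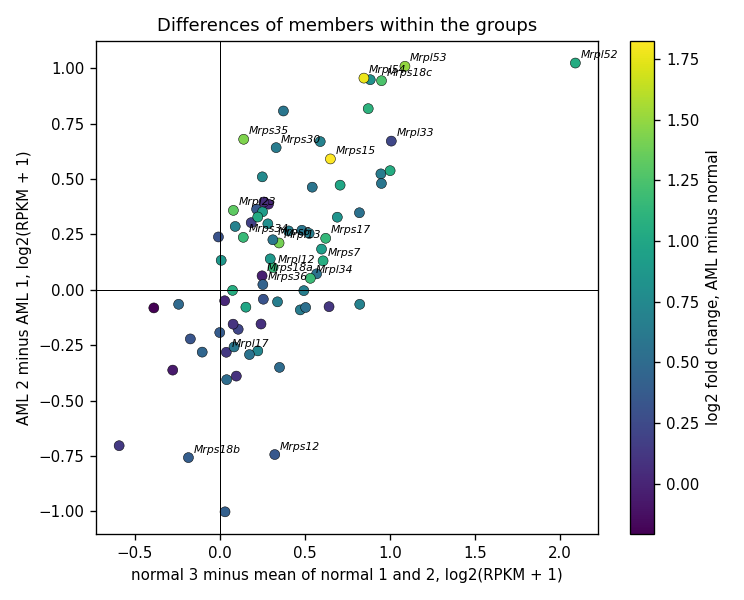
Each point is one of 76 members, placed by the difference of normal library 3 from the mean of normal libraries 1 and 2 (horizontal) and of AML library 2 from AML library 1 (vertical), both on the log2(RPKM + 1) scale, and coloured by the log2 fold change between the groups. Most points lie to the right of 0, with Mrpl52 farthest out and Mrpl53, Mrpl54 and Mrps18c high on both axes.

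Members were also grouped by whether the protein has a bacterial counterpart or is particular to mitochondria. Of 46 with a counterpart 12 rose, with a median log2 fold change of 0.62, and of 30 without one 9 rose, also with a median of 0.62 (limma, background 19.3% higher). Within the large subunit 8 of 30 genes with a counterpart and 5 of 17 without one rose. Within the small subunit the numbers were 4 of 16 and 4 of 13. Both AML libraries were above all 3 normal ones for 13 of the 16 small subunit genes with a counterpart and 8 of the 13 without one (background 34.8%). Mrps18a and Mrps18b, paralogs of a protein of bacterial origin, are counted here among those without a counterpart. Whether these classes differ was not tested.

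Promoter sequence was searched for 4 motifs known from nuclear genes of mitochondrial proteins or from MYC targets. RefSeq windows of 300 bases, 250 before to 50 after a transcript start on build GRCm38.p6, were found for 67 of 77 members. The letters searched on both strands were GCGCA, any base and GCGC for NRF1, CCGGAAG for ETS factors such as GABPA, AANATG followed by GCGGC for YY1, and CACGTG for the E-box bound by MYC, and no motif lies inside another. ETS letters were in the window of 24 members (35.8%, against 22.1% of tested and 9.93% of all genes with a window), and YY1 letters in 7 (10.4%, against 3.19% and 1.17%). NRF1 letters were in 12 (17.9%, against 12.6% and 5.19%) and the E-box in 5 (7.46%, against 12.1% and 8.09%). Among the 14 called members with a window, 3 held NRF1, 4 ETS, 0 YY1 and 1 E-box letters. Members with ETS letters had a median log2 fold change of 0.49 and those without 0.60. The 4 windows printed, with motif letters in capitals, set 3 genes that rose beside one that missed the threshold: Mrpl12 holds an NRF1 match, Mrpl53 a pair of ETS matches, Mrps15 none of the 4 motifs, and Mrps18a an ETS and a YY1 match.
Mrpl12, chr11:120484387-120484686, plus strand: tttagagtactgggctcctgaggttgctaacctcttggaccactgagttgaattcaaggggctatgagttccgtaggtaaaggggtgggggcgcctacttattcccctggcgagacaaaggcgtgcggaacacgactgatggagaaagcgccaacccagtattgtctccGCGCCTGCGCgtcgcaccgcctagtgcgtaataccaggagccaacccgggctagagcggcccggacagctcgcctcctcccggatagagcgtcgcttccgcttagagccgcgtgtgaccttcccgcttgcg
Mrpl53, chr6:83108858-83109157, plus strand: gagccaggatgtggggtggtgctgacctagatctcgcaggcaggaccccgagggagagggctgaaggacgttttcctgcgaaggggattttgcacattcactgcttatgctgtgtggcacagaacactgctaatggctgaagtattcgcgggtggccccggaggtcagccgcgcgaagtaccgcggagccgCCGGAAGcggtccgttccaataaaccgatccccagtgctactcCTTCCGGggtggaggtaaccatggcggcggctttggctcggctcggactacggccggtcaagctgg
Mrps15, chr4:126046678-126046977, plus strand: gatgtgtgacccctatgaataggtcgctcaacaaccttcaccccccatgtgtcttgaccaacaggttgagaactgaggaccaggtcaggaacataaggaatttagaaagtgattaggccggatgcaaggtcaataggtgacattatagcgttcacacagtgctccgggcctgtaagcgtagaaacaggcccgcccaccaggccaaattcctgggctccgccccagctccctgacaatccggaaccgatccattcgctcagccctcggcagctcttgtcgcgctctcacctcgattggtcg
Mrps18a, chr17:46110754-46111053, plus strand: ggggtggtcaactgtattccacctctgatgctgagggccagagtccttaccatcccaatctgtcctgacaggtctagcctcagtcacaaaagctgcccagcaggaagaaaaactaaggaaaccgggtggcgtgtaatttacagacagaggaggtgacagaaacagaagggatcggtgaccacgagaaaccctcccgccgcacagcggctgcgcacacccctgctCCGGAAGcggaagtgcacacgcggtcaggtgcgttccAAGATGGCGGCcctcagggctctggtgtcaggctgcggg
A match is a run of letters and not a measured binding site.

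Among genes that build and run the mitochondrial ribosome, calls were likewise in 1 direction, higher in AML cells, and are to be read beside the 19.3% of all tested genes called higher and the 11.8% called lower. Of 7 subunits that carry other symbols, Ptcd3, a small subunit protein, rose (0.85, SE 0.26, limma adjusted p = 0.044), and estimates were above 0 for all 7. Among 24 tested assembly factors 8 rose and none fell. The largest change was that of Noa1, a GTPase of small subunit assembly listed as 2610024G14Rik, at 4.43, 4.28 and 3.2 RPKM in normal and 12.18 and 9.7 RPKM in AML libraries (1.27, SE 0.24, adjusted p = 0.0090). Rnmtl1, Mrm1 and Ftsj2, methyltransferases of the large ribosomal RNA, rose by 1.15, 1.06 and 0.82, and were named after their values were seen. Of 15 translation factors 5 rose and none fell, with Mtrf1l, a release factor, at 1.66, 2.37 and 3.55 RPKM in normal and 9.03 and 15.02 RPKM in AML libraries (1.88, SE 0.32, adjusted p = 0.0067). Tufm, the elongation factor, missed the threshold (0.19, SE 0.27). Of 11 tested regulators 5 rose and none fell, and at an unadjusted p under 0.05 the numbers were 7 and 0 (limma). Over all 10166 tested genes the unadjusted numbers were 2698 and 1765. Tfam, which packages mitochondrial DNA, rose by 1.04 (SE 0.22, adjusted p = 0.014), and Myc rose most, by 3.09 (SE 0.24). Nrf1, Gabpa and Yy1, which bind 3 of the motifs searched, had estimates of 0.02, -0.59 and 0.00, none past the threshold. Of 13 mitochondrially encoded mRNAs searched for by symbol, none was found among the features, so their levels could not be described.

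Genes of the cytosolic ribosome had the larger median difference. Of 80 tested cytosolic ribosomal protein genes 71 rose, with a median log2 fold change of 1.60, and their summed level was 6979 ± 1444 RPKM in normal (SD, n = 3) and 20865 ± 2076 RPKM in AML libraries (SD, n = 2). Many of these genes have near-identical pseudogenes that can take part of their reads. Respiratory chain and ATP synthase genes, which work together with the products of mitochondrial translation, had a median of 0.61, beside 0.62 for the mitoribosome, with 14 of 80 called higher, or 17.5% and below the 19.3% of all tested genes. None of either group was called lower (limma), against 11.8% of all tested genes. None was lower at an unadjusted p under 0.05, against 1765 of all 10166 tested genes. Both AML libraries were above normal library 3 for 40 of 80 respiratory chain genes, 54 of 76 mitoribosome genes and 76 of 80 cytosolic ribosomal genes, an order that 46.9% of all tested genes showed. The differences between these groups of genes were not tested.

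**Figure D5:**
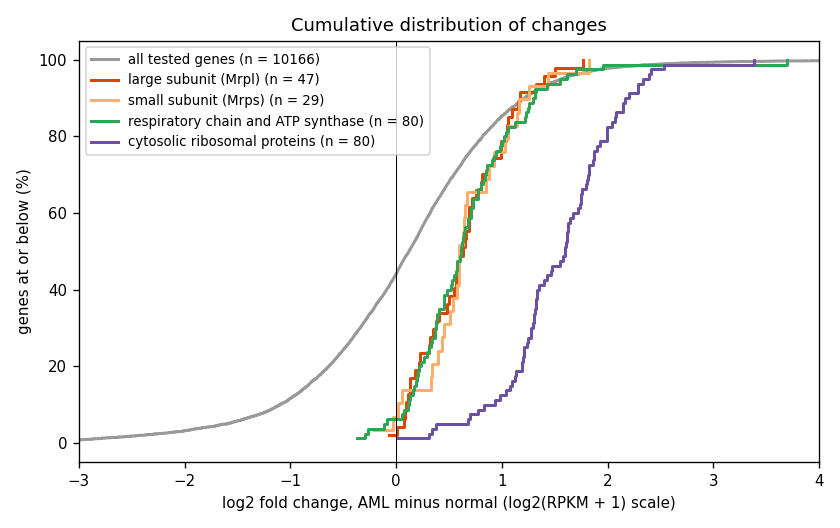
Cumulative share of genes at or below each log2 fold change, AML minus normal, for all 10166 tested genes and 4 gene groups. The curves of the large subunit, small subunit and respiratory chain genes run together with medians of 0.63, 0.60 and 0.61, to the right of all genes (0.12) and to the left of cytosolic ribosomal proteins (1.60).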

How the data were processed

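Per the labels' protocols, RNA from the sorted cells was made into libraries with an Illumina TruSeq kit for RNA. The deposited table gives values for 34240 features in 5 libraries. These are taken to be RPKM made by the authors, a unit inferred from the values because no label or header names it. Per the submitters' processing notes the reads were placed on mm9. The aligner, counting tool and annotation were not given in the sources used here. Depth could not be settled from the steps between low values, so no counting interval is given.

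Features that reached 1 RPKM in 2 or more libraries (10166) were tested with limma 3.58.1 in R 4.3.3 on log2(RPKM + 1), two-sided, with a variance trend, robust estimation and Benjamini-Hochberg adjustment over all tested features at 0.05. How the test performs when libraries of a group differ as these did was not tested. Fold changes on this scale understate those of low genes. Gene positions and exon overlaps came from GENCODE annotation of mm9, and promoter windows from RefSeq. Libraries were grouped by label, and replicate numbers follow accession order.

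Members and gene lists were chosen with earlier results of these data known. Named by rule were, in each subunit, the 5 called members with the largest rise and the 5 with the largest fall, the members with the highest and lowest mean level, and any call against the common direction. Mrps18a, Mrps18b, Mrps18c, Mrpl12, Mrps12, Mrps30 and Mrps36 were always named, as was the most changed called gene of each related list. Alternatives were another pseudocount, low-value filter, scaling and variance model, rounding, removal of length or GC trends, and leaving out libraries.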

Additional observations from a re-analysis of the deposited data

How the results depend on the processing

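Of the 21 called members, between 14 and 21 remained called under the other pseudocount, filter, scaling, variance and trend settings. Without a low-value filter 5 small subunit genes were called, with quantile normalization 8 large subunit genes, and with the length trend removed the large subunit median was 0.38. Leaving out 1 library at a time gave 0 to 27 large and 0 to 17 small subunit genes called higher, and over all genes 326 to 2757 higher and 348 to 2142 lower. The low ends came without AML replicate 2 and the high ends without normal replicate 3. Without normal replicates 1 and 2, 0 large and 2 small subunit genes, and 864 higher and 471 lower of all genes, were called, with a large subunit median of 0.34. Leaving out 1 library turned the sign of 14 of the 76 estimates, and leaving out normal replicates 1 and 2 that of 11. None of these could be a called member, because both AML libraries lay above every normal one for each called member. Among the members named by rule, leaving out 1 library, Mrpl17 ran from -0.012 to 0.27, Mrpl33 from -0.11 to 0.56, Mrps12 from -0.032 to 0.71 and Mrps18a from -0.082 to 0.053. Without normal replicates 1 and 2 Mrpl33 was at -0.45 and Mrpl52, at 1.05 in the full fit, at -0.35, and with the length trend removed Mrps12 was at -0.012. The cause was not tested, beyond the smaller number of samples. No paired analysis was possible because the replicate numbers were given in accession order and the labels name no pairs. Depth is unknown.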
